A study of Macaca fascicularis with 23 samples.

Results

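The 48 genes described here were read in cynomolgus monkey (Cm) pluripotent stem cells (PSCs). Their means were higher after LIF and doxycycline had been taken away than in either state that preceded the withdrawal. The means of those earlier states lay within 0.8 of each other on the log2 scale used below, and within 0.3 for 25 of the genes. The genes were selected on measured values. A gene was a member when its mean log2(RPM + 1), where RPM is the reads of a gene scaled to a fixed library total, was at least 0.8 higher in differentiated than in naïve-like cells and at least 0.8 higher than in primed cells over the 7 lines, when both differences were positive in at least 6 of the 7 lines, and when the naïve-like and primed means lay within 0.8 of each other. These 48 genes were 1.73% of the 2776 expressed genes, that is, genes above 4 on this scale in at least 1 of the 21 PSC libraries. Of 76 expressed genes with both gains, 23 missed the count of lines and 5 had naïve-like and primed means too far apart. The differences between conditions in the members' levels are therefore what the selection used, and they are given as a description without a test.

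Expression was measured by SC3-seq, in which only the 3′ end of each amplified cDNA is sequenced, so that a transcript's length does not scale its count. The 3 ESC lines (CMK6, TRSK, CMK9) and the 4 iPSC lines were each sampled in 3 conditions with 1 library per line and condition. The iPSC lines L3 and L6 came from liver cells and S6 and S12 from stomach cells of the same foetus, by episomal vectors for L-MYC, LIN28, OCT3/4, KLF4, SOX2 and a short hairpin RNA against p53, and each source tissue gave 1 library of somatic cells. Primed cells (Prime) grew in bFGF/KSR. Naïve-like cells (Naive-like) grew in K5cLD, with LIF, with doxycycline to switch on transgenes of human KLF2 and NANOG carried by piggyBac vectors, and with Gö6983, forskolin, kenpaullone, CHIR99021 and SB590885. Differentiated cells (Dif) grew in K5c, which kept these compounds but lacked LIF and doxycycline, so they carried the transgenes without their inducer. The paper reports that some exogenous NANOG expression remained without doxycycline in TRSK and S6. It also reports that iPSC lines, unlike ESC lines, kept part of their colonies dome-shaped after withdrawal. Each line is a separate culture, but the 4 iPSC lines share 1 animal, and the running numbers in the library titles follow the conditions, so whatever these numbers stand for cannot be told apart from condition.

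LIF acts through its receptor and JAK kinases on STAT3, and together with KLF2 and NANOG it holds cells in an undifferentiated state. When such support ends, PSCs leave self-renewal, and in the absence of other instruction they often take up a neural programme, in which transcription factors such as ZIC1 and POU3F2 act and Hedgehog and Wnt ligands pattern the tissue. Kenpaullone and CHIR99021 inhibit GSK3, which mimics a Wnt signal, and forskolin raises cAMP; both were present in naïve-like and differentiated cells.

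Depth was 861000 to 7986000 reads per library as read from the smallest step between values (median 3004000), and the median was 3250000 for primed, 2648000 for naïve-like and 3063000 for differentiated ones. Of the PSC libraries 5 held fewer than 1200000 reads, and of these 1 was primed, 2 were naïve-like and 2 differentiated. A count of 3 reads corresponded to 0.376 to 3.49 RPM. The 8415 genes analysed took 24.8% to 27.5% of each library, and of the 5564 genes found in the RefSeq annotation all but 13 lay on chromosomes 1 to 5. The other 2851 genes, 88 of them expressed and 1 a member, were not found in it. As the samples are bulk RNA, a larger share of cells of a type and more RNA per cell cannot be told apart.

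Together the members summed to 803 to 1816 RPM in primed libraries (median 1180), 606 to 1364 RPM in naïve-like libraries (median 1207) and 2443 to 3168 RPM in differentiated libraries (median 2772). The median member stood on the log2 scale at 3.29 (primed), 3.06 (naïve-like) and 4.55 (differentiated), against 4.93, 5.00 and 4.94 for the median expressed gene. The members therefore started below the typical expressed gene and ended near it. Their median gain was 1.48 over naïve-like and 1.27 over primed cells, whereas the medians of all expressed genes were −0.02 and 0.05. Both primed and naïve-like means were under 4 for 31 members, and 17 of these had a differentiated mean above 4. In all, 15 members passed the expression filter through differentiated libraries alone.

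**Figure D1:**
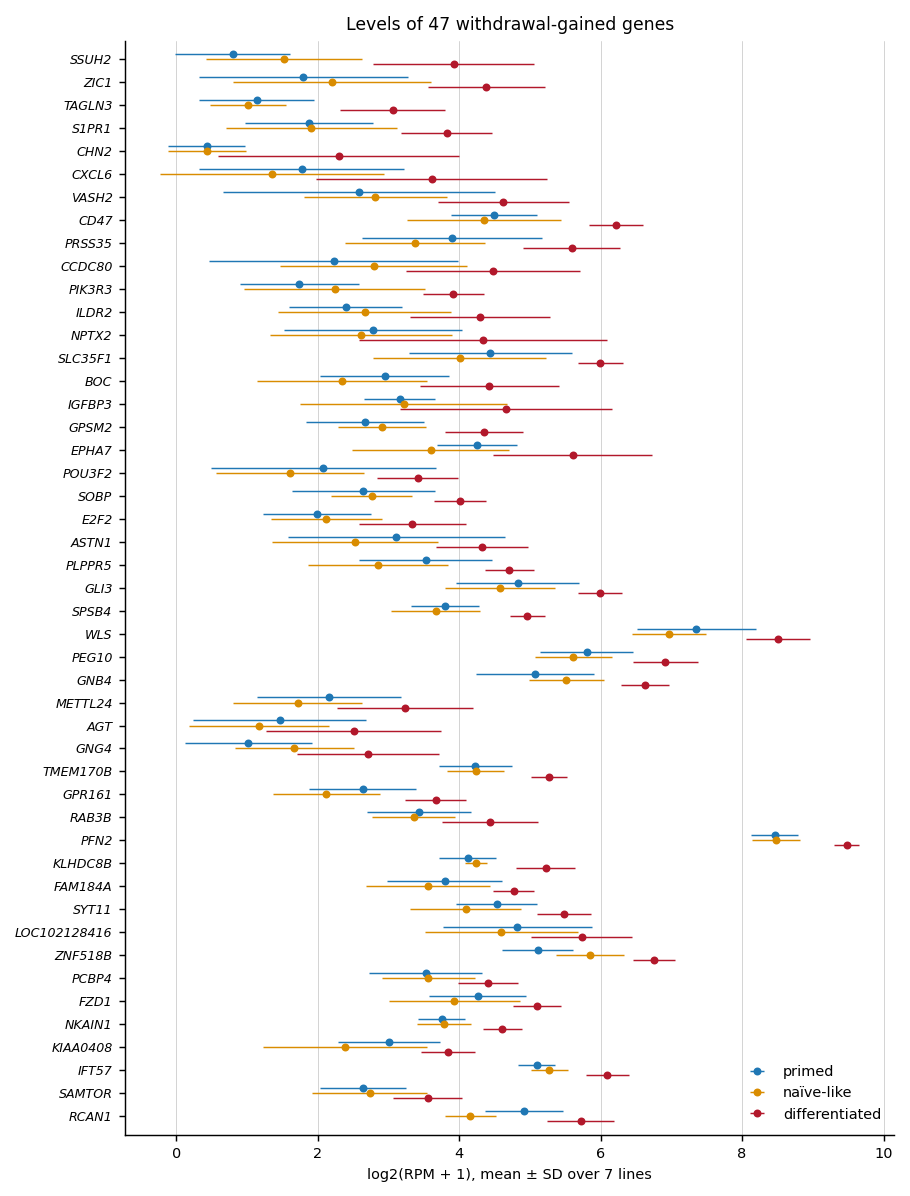
Levels of 47 of the 48 members, on a log2(RPM + 1) axis. Points are means and bars are SD over 7 lines for primed, naïve-like and differentiated cells, ordered by the smaller of the 2 gains, from SSUH2 (2.40) at the top to RCAN1 (0.80) at the bottom.

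Of the transcription factors among the members, ZIC1, a zinc-finger factor of the neural plate and the neural crest, had 0 to 11.6 RPM in primed cells (median 2.61), 0 to 12.1 RPM in naïve-like cells (median 7.12) and 7.44 to 46.8 RPM in differentiated cells (median 23.2). It was listed at 0 in 2 primed and 1 naïve-like libraries, and every differentiated library held reads. The mean gain was 2.19 ± 1.25 over naïve-like and 2.59 ± 1.98 over primed cells on the log2 scale (SD over 7 lines). POU3F2, a POU-domain factor of neural progenitors and neurons, had 0 to 12.8 RPM in primed cells (median 6.17), 0 to 7.76 RPM in naïve-like cells (median 1.75) and 3.92 to 16.03 RPM in differentiated cells (median 10.6), and the ranges overlapped. GLI3, the zinc-finger effector that mostly represses Hedgehog targets, had 11.5 to 55.8 RPM in primed cells (median 26.1), 7.96 to 47.01 RPM in naïve-like cells (median 22.3) and 48.9 to 83.04 RPM in differentiated cells (median 68.4). Its differentiated range touched only the top of the primed one, and the gain was 1.42 over naïve-like and 1.17 over primed. E2F2, which drives genes of DNA replication, had medians of 2.35 and 2.63 RPM against 8.74 RPM in primed, naïve-like and differentiated cells, an order kept for all medians given below, and SOBP, a zinc-finger protein of the developing inner ear, had medians of 6.0 and 7.25 RPM against 15.5 RPM. The zinc-finger protein ZNF518B had medians of 34.7 and 58.5 RPM against 105 RPM and was among the members whose naïve-like level lay farthest above the primed one (0.74).

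A further group has roles in the cytoskeleton, vesicle traffic, adhesion and synapses of neurons. TAGLN3, a transgelin of neurons, had 0 to 3.49 RPM in primed cells (median 0.923), 0 to 2.22 RPM in naïve-like cells (median 1.14) and 4.09 to 17.3 RPM in differentiated cells (median 7.43). Its 7 differentiated libraries all lay above its 14 others, with gains of 2.05 ± 0.84 over naïve-like and 1.93 ± 1.23 over primed cells. PFN2, the profilin enriched in brain that supplies actin monomers, was read far more deeply, with 241 to 468 RPM in primed cells (median 360.0), 218 to 439 RPM in naïve-like cells (median 389) and 601 to 829 RPM in differentiated cells (median 759). Again no differentiated library reached down to the others, although the gain was smaller, at 1.00 over naïve-like and 1.02 over primed. CHN2, a Rac GTPase-activating protein, was listed at 0 in 4 primed, 3 naïve-like and 1 differentiated libraries, and it had 0 to 37.2 RPM (median 3.19) in differentiated cells against 0 to 1.18 RPM (median 0) in primed and 0 to 1.52 RPM (median 0.178) in naïve-like cells. VASH2, a tubulin carboxypeptidase first known from blood vessels, had 0 to 64.7 RPM in primed cells (median 4.41), 1.11 to 16.4 RPM in naïve-like cells (median 7.01) and 9.14 to 60.5 RPM in differentiated cells (median 21.97). A primed library exceeded all differentiated ones, so the ranges overlapped.

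NPTX2, a secreted pentraxin that clusters glutamate receptors at synapses, had 0.886 to 23.7 RPM in primed cells (median 8.13), 1.13 to 16.3 RPM in naïve-like cells (median 6.91) and 5.31 to 87.2 RPM in differentiated cells (median 8.18), with the lines far apart after withdrawal. ASTN1, an adhesion protein on which neurons migrate along glia, had 0.434 to 24.1 RPM in primed cells (median 10.5), 0.346 to 15.5 RPM in naïve-like cells (median 4.38) and 7.89 to 28.96 RPM in differentiated cells (median 22.3). PLPPR5, a membrane protein of growing neurites, had 2.06 to 20 RPM in primed cells (median 14.6), 1.04 to 17.7 RPM in naïve-like cells (median 7.01) and 15.9 to 37.3 RPM in differentiated cells (median 25.7), and EPHA7, a receptor for ephrin-A ligands that guides axons, had 7.82 to 26.1 RPM in primed cells (median 18.2), 2.42 to 29.4 RPM in naïve-like cells (median 10.5) and 16.95 to 195 RPM in differentiated cells (median 40.3). For ASTN1, PLPPR5 and EPHA7 the lowest differentiated library fell within the range of the primed ones. SYT11, a synaptotagmin of vesicle membranes, had medians of 23.04 and 19 RPM against 44.3 RPM, and RAB3B, a small GTPase of regulated secretion, had medians of 9.3 and 8.76 RPM against 20.4 RPM. NKAIN1, which binds a subunit of the sodium pump, had 8.52 to 16.6 RPM in primed cells (median 12.8), 7.77 to 18.4 RPM in naïve-like cells (median 12.8) and 18.6 to 31.8 RPM in differentiated cells (median 22.1). Its gains were among the smallest of the set (0.83 and 0.86), yet its differentiated libraries did not overlap with the others.

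Hedgehog signalling passes through the primary cilium, and 4 members act there. BOC, a coreceptor that binds Hedgehog ligands, had 1.3 to 14.1 RPM in primed cells (median 8.86), 1.13 to 19 RPM in naïve-like cells (median 2.67) and 10.8 to 77.7 RPM in differentiated cells (median 13.98). GPR161, a receptor in the ciliary membrane that restrains the pathway through cAMP, had medians of 5.38 and 4.15 RPM against 10.4 RPM, with gains of 1.54 over naïve-like and 1.03 over primed. IFT57, a subunit of the intraflagellar transport complex that builds cilia, had 24.1 to 41.2 RPM in primed cells (median 34.99), 31.1 to 52.1 RPM in naïve-like cells (median 35.7) and 52.03 to 91.4 RPM in differentiated cells (median 66.4), and GLI3 is described above. A list of 27 Hedgehog and cilium genes, drawn up after the members were known, had 9 expressed genes in the table. Of the 5 that were not members, 1 passed the test for a higher level in differentiated than naïve-like cells and none passed against primed cells, and their median differences were 0.34 and 0.37.

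In the Wnt pathway, WLS, which carries Wnt ligands to the cell surface, had 49.8 to 337 RPM in primed cells (median 179), 63.4 to 209 RPM in naïve-like cells (median 126) and 237 to 536 RPM in differentiated cells (median 335), and its gain was 1.55 over naïve-like and 1.16 over primed. FZD1, a Frizzled receptor, had 8.92 to 33.7 RPM in primed cells (median 19.7), 3.81 to 34.2 RPM in naïve-like cells (median 15.2) and 25.6 to 49.1 RPM in differentiated cells (median 31.9), with a gain close to the threshold over primed cells (0.84). Among the other 15 expressed genes of a list of Wnt ligands, receptors and targets, 3 were higher and 1 lower in differentiated than in naïve-like cells, whereas 0 were higher and 1 was lower against primed cells, by limma at an adjusted p under 0.05.

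Receptors and their intracellular partners made up another group. S1PR1, a G protein-coupled receptor for sphingosine-1-phosphate, had 0.588 to 6.51 RPM in primed cells (median 3.53), 0 to 10.7 RPM in naïve-like cells (median 3.03) and 7.1 to 24.8 RPM in differentiated cells (median 14.97), and a naïve-like library reached above the lowest differentiated ones. CD47, the surface protein that binds SIRPα on macrophages, had 10.6 to 45.6 RPM in primed cells (median 20.9), 3.46 to 39.7 RPM in naïve-like cells (median 25.01) and 55.3 to 107 RPM in differentiated cells (median 68.4). All 7 of its differentiated libraries were above the 14 others, and the gain was 1.87 ± 1.32 over naïve-like and 1.72 ± 0.81 over primed cells. GPSM2, which orients the mitotic spindle through G protein alpha subunits, had 1.16 to 9.39 RPM in primed cells (median 6.77), 3.4 to 11.4 RPM in naïve-like cells (median 7.65) and 11.4 to 36.2 RPM in differentiated cells (median 19.1) and was separated in the same way, although the highest naïve-like and the lowest differentiated libraries nearly met. The G protein beta subunit GNB4 had medians of 38.5 and 53.7 RPM against 102 RPM, and the gamma subunit GNG4 medians of 1.23 and 2.22 RPM against 5.48 RPM. PIK3R3, a regulatory subunit of phosphoinositide 3-kinase, had 0 to 4.7 RPM in primed cells (median 3.04), 0 to 12.8 RPM in naïve-like cells (median 3.4) and 8.32 to 21.3 RPM in differentiated cells (median 14.8). SPSB4, a substrate adaptor of a ubiquitin ligase, had 7.94 to 23.5 RPM in primed cells (median 11.5), 4.85 to 20.8 RPM in naïve-like cells (median 11.2) and 24.4 to 39.6 RPM in differentiated cells (median 30.7), without overlap. ILDR2, an immunoglobulin-like membrane protein, had 0.751 to 8.61 RPM in primed cells (median 4.7), 0.346 to 13.8 RPM in naïve-like cells (median 7.76) and 4.25 to 41.5 RPM in differentiated cells (median 20.9). RCAN1, an inhibitor of calcineurin, had medians of 31.4 and 15.6 RPM against 49.99 RPM, and of all members it lay nearest to the limit for the gain over primed cells and for the distance between naïve-like and primed levels.

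Several secreted proteins varied widely among lines. CXCL6, a chemokine that attracts neutrophils, had 0 to 12 RPM in primed cells (median 2.61), 0 to 19 RPM in naïve-like cells (median 1.51) and 1.06 to 65.2 RPM in differentiated cells (median 8.2). It belongs to a family of similar copies, so its reads may be shared with them. IGFBP3, a carrier of insulin-like growth factors, had 3.23 to 10.9 RPM in primed cells (median 8.25), 2.64 to 44.04 RPM in naïve-like cells (median 5.55) and 5.46 to 101 RPM in differentiated cells (median 18.3), and CCDC80, a protein of the extracellular matrix, had 0.294 to 47.8 RPM in primed cells (median 2.5), 1.11 to 28.7 RPM in naïve-like cells (median 5.31) and 5.31 to 51.7 RPM in differentiated cells (median 31.5). For these 3 genes the differentiated libraries spanned a wide range that took in much of the earlier values. PRSS35, a serine protease homologue, had 2.32 to 35.9 RPM in primed cells (median 20.5), 3.12 to 27.6 RPM in naïve-like cells (median 7.3) and 24.2 to 78.6 RPM in differentiated cells (median 47.9). AGT, the precursor of angiotensin, had medians of 0.923 and 0.864 RPM against 3.26 RPM and was under 3 reads in at least 1 differentiated library, as were CHN2, CXCL6 and GNG4.

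First in order of the smaller gain was SSUH2, with 0 to 2.65 RPM in primed cells (median 0.923), 0 to 8.87 RPM in naïve-like cells (median 1.78) and 2.91 to 36.3 RPM in differentiated cells (median 14.9). It was listed at 0 in 3 primed libraries, and its gain was 2.40 ± 1.23 over naïve-like and 3.12 ± 1.26 over primed cells. SLC35F1, a member of a solute carrier family, had 5.85 to 48.5 RPM in primed cells (median 30.6), 2.08 to 47.7 RPM in naïve-like cells (median 18.1) and 45.4 to 90.2 RPM in differentiated cells (median 64.8). PEG10, an imprinted gene derived from a retrotransposon, had medians of 58.1 and 59.5 RPM against 124 RPM. SAMTOR, a sensor of S-adenosylmethionine upstream of mTORC1, had medians of 5.23 and 7.77 RPM against 10.7 RPM, and PCBP4, an RNA-binding protein, had medians of 10.9 and 12.3 RPM against 19.1 RPM. The remaining members, TMEM170B, KLHDC8B, METTL24, FAM184A, KIAA0408 and LOC102128416, had median differentiated levels between 9.32 RPM (METTL24) and 50.95 RPM (LOC102128416, which matched no entry of the annotation).

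**Figure D2:**
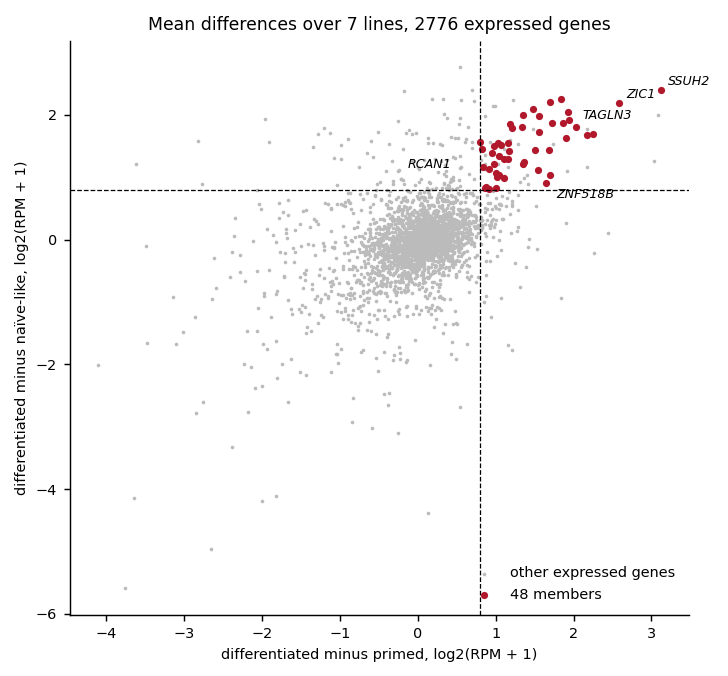
Mean difference between differentiated and primed cells (x axis) and between differentiated and naïve-like cells (y axis) in log2(RPM + 1) over 7 lines, for 2776 expressed genes. Members are in red and the dashed lines mark 0.8. The members lie in the upper right corner by selection, and grey points beside them missed the count of lines or the limit on naïve-like against primed cells.

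The 2 gains were not equal within the set. A larger gain over naïve-like than over primed cells was found in 27 members and the reverse in 21, and naïve-like cells stood below primed cells in 27 and above them in 21. Both gains were at least 1 in 35 members and at least 1.5 in 14. All 7 lines were higher against naïve-like cells in 40 members, against primed cells in 27 and in both in 25. Among all expressed genes, 0.324% (9 genes) had every differentiated library above all 14 other PSC libraries, and 6 of these were members, namely TAGLN3, CD47, GPSM2, SPSB4, PFN2 and NKAIN1. By limma with Benjamini-Hochberg adjustment, 39 members were higher than in naïve-like cells, where 6.41% of expressed genes were, and 29 were higher than in primed cells, where 6.27% were. When the fit was blocked on the line, the last number was 41. With a line left out these numbers were 20 (without CMK6) to 34 and 19 (without TRSK) to 33. These calls use the contrasts that chose the members, so nothing is read from them.

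**Figure D3:**
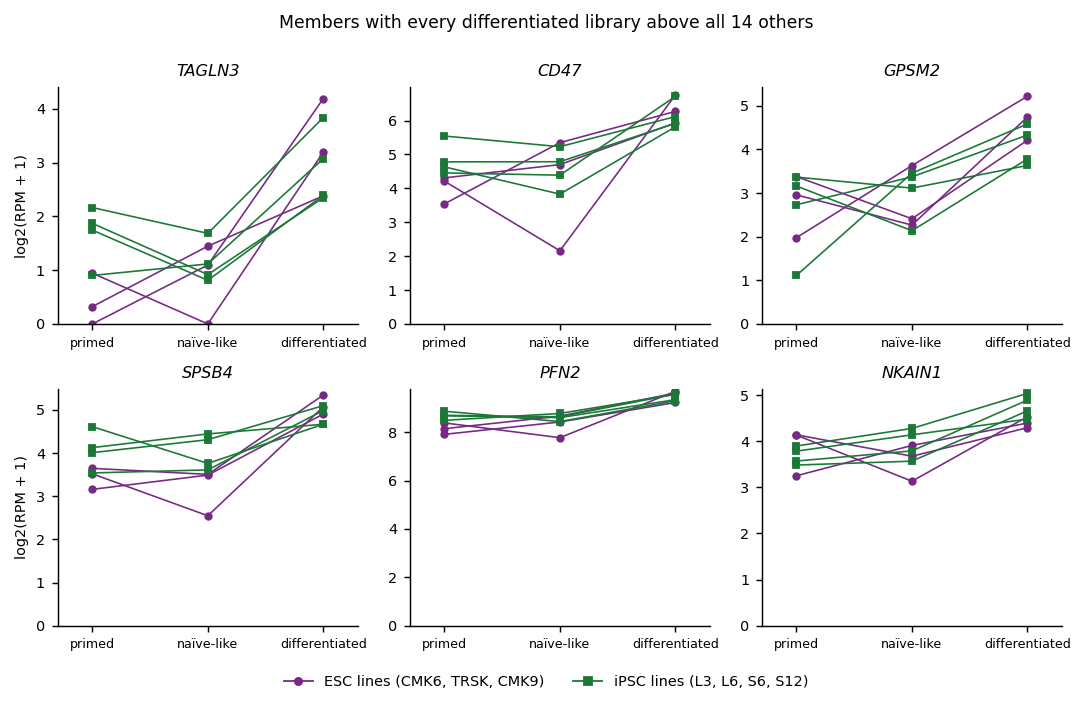
Values of log2(RPM + 1) in each line (lines and markers) for the 6 members whose 7 differentiated libraries all lay above the 14 primed and naïve-like ones. Naïve-like CMK6 is the lowest naïve-like library in several panels, for example CD47 at 3.46 RPM and PFN2 at 218 RPM.

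Near the thresholds, SAMTOR (0.81), IFT57 (0.82) and NKAIN1 (0.83) were just inside the limit on the gain over naïve-like cells, and STAC (0.78), HPDL (0.77) and ABHD14A (0.72) just outside. For the gain over primed cells RCAN1 (0.80), KIAA0408 (0.83) and FZD1 (0.84) were inside, and TSPYL4 (0.73), C2H3orf70 (0.70) and SLC5A3 (0.54) outside. For naïve-like minus primed, RCAN1 (−0.76), ZNF518B (0.74) and SSUH2 (0.72) were inside, and HOXA2 (−1.02) and HOXA3 (1.09) outside.

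Because the selection used all 7 lines, it was repeated with each line left out and the genes it gave were read in that line. The 43 to 53 genes so chosen, of which 33 to 44 were members, were higher in the left-out line than in both its own naïve-like and its own primed library in 69.8% (S12) to 89.4% (CMK6) of cases. In the same lines 27.1% to 36.7% of all expressed genes were higher in both. The median gain in the line left out ran from 0.90 (S12) to 2.48 (CMK6) over naïve-like and from 0.48 (S12) to 1.53 (TRSK) over primed cells. These gains share a differentiated library within each line. The left-out line is also not independent of the others, as the iPSC lines share 1 animal and the library numbers follow the conditions in every line.

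Across lines the members' median gain over naïve-like cells was 2.51 in CMK6, 1.5 in TRSK, 1.20 in CMK9, 1.29 in L3, 0.96 in L6, 1.11 in S6 and 1.10 in S12. Over primed cells it was 1.38 in CMK6, 2.12 in TRSK, 1.55 in CMK9, 0.79 in L3, 1.07 in L6, 1.20 in S6 and 0.63 in S12. The medians of all expressed genes ran from −0.12 (S6) to 0.09 (CMK6) over naïve-like cells and from −0.06 (S6) to 0.18 (TRSK) over primed cells. The ESC lines had the higher member medians, apart from CMK9 over naïve-like cells. These gains are what the selection averaged, and lines with large gains weigh more in that average. Nothing is therefore read from the order of the lines. Naïve-like CMK6 was the lowest naïve-like library for 30 of the 48 members, against 25.4% of expressed genes, and lay at a median of 0.96 below the members' naïve-like mean. A low naïve-like value raises the gain that chose the members, so this excess is in part built into the selection. Primed S12 was the highest primed library for 18 members, against 22.1% of expressed genes. Without the naïve-like CMK6 library the selection gave 46 genes, of which 44 were members, and without the primed S12 library 49 genes, of which 45 were members.

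Whether ESC and iPSC lines responded alike was asked with limma. The measure was the difference between the 3 ESC and the 4 iPSC lines in the step from naïve-like to differentiated. The selection did not use the cell class, but it averaged these same steps over all lines. For members the measure is therefore not independent of the selection. No gene passed an adjusted p of 0.05 (0% of 2776, lowest adjusted p = 0.999). At an unadjusted p under 0.05, 3.93% of expressed genes (109) and 3 members passed, all with the larger step in ESC lines. They were GLI3 (1.27, SE 0.48), SPSB4 (1.10, SE 0.43) and TMEM170B (0.82, SE 0.37). As all iPSC lines came from the same foetus, this comparison cannot tell ESC against iPSC apart from a difference between animals. The step was larger in ESC lines for 39 of 48 members with a median of 0.61, whereas this held for 58.6% of expressed genes with a median of 0.07. Lines with large steps weigh more in the average that chose the members. The count and median over members and the 3 named members are thus in part a product of the selection, and nothing is read from them. The count and the median also moved with the naïve-like CMK6 library. Without that library the step was larger in ESC lines for 31 members, the median was 0.19 and 0 members passed at an unadjusted p under 0.05, and without the whole CMK6 line the count was 29 and the median 0.20.

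The level after withdrawal was compared between ESC and iPSC lines in the same way. An adjusted p of 0.05 was passed by 17 genes, 0.612% of those expressed, and NPTX2 was the member among them. NPTX2 passed the expression filter through ESC libraries alone, as no iPSC library held it above 4 on the log2 scale. The selection also used the differentiated levels. Its call is therefore in part built into the filter and the selection, and its values are given as a description. In differentiated ESC lines NPTX2 stood at 87.2 RPM in CMK6, 81.04 RPM in TRSK and 53.4 RPM in CMK9, and in differentiated iPSC lines at 7.44 RPM in L3, 6.32 RPM in L6, 5.31 RPM in S6 and 8.18 RPM in S12. The groups did not overlap, and the difference was 3.24 on the log2 scale (SE 0.54, limma adjusted p = 0.00343). All iPSC lines came from the same foetus. The test counted them as separate replicates, so its p-values cannot tell ESC against iPSC apart from a difference between animals. Primed ESC lines had 8.39 to 23.7 RPM and primed iPSC lines 0.886 to 8.13 RPM, and naïve-like ESC lines had 6.91 to 16.3 RPM and naïve-like iPSC lines 1.13 to 7.76 RPM. The step from naïve-like to differentiated cells was larger by 1.29 in ESC lines (SE 0.76, limma adjusted p = 0.999), so the levels but not the steps passed the test. In L6 the differentiated library (6.32 RPM) was below both the primed (8.13 RPM) and the naïve-like one (7.76 RPM). Without line TRSK the difference was 3.16 with an adjusted p of 0.066.

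At an unadjusted p under 0.05, which 12.5% of expressed genes passed, 5 members differed in level. The shared foetus of the iPSC lines and the use of differentiated levels in the selection limit these p-values in the same way. Like NPTX2, BOC passed the expression filter through ESC libraries alone, so its difference is in part built into the filter. Besides NPTX2, EPHA7 (1.73, SE 0.59, limma adjusted p = 0.20) and BOC (1.57, SE 0.64, adjusted p = 0.292) were higher in ESC lines. Differentiated ESC lines held 61.6 to 195 RPM of EPHA7 and iPSC lines 16.95 to 40.3 RPM, and for BOC the ranges were 25.7 to 77.7 RPM and 10.8 to 13.98 RPM. LOC102128416 was lower in ESC lines. It stood at 26.8 to 39.2 RPM in ESC and 50.95 to 99.4 RPM in iPSC lines (−1.20, SE 0.31, adjusted p = 0.082), and it passed when libraries were quantile normalised (adjusted p = 0.046) or centred (adjusted p = 0.039). Its iPSC lines were also above its ESC lines in primed cells, at 26.7 to 69.4 RPM against 9.99 to 15.8 RPM, and in naïve-like cells, at 28.3 to 60.5 RPM against 9.35 to 11.2 RPM.

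**Figure D4:**
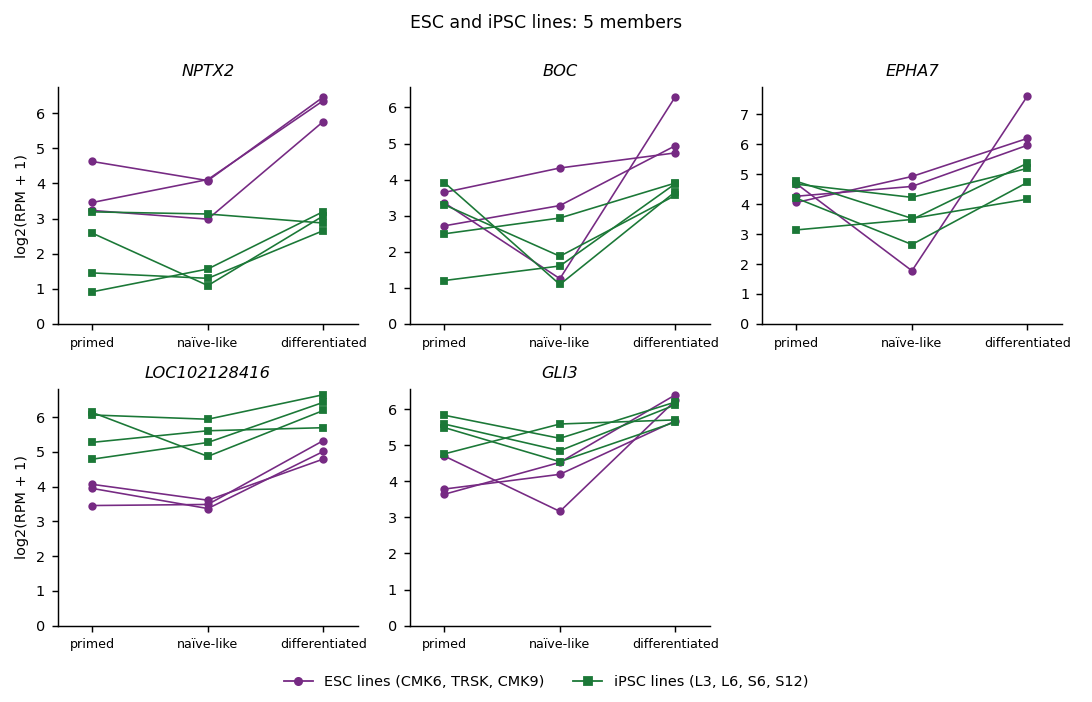
Values of log2(RPM + 1) in each line for 4 members that differed between ESC and iPSC lines after withdrawal at an unadjusted p under 0.05 and for GLI3, which had the lowest p for the difference in response. In NPTX2 the 3 ESC lines end at 53.4 to 87.2 RPM and the 4 iPSC lines at 5.31 to 8.18 RPM.

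Over the set, 37 members were higher in differentiated ESC than iPSC lines with a median of 0.23, against 56.5% of expressed genes with a median of 0.07. Under quantile normalisation the count was 32 with a median of 0.11, against 49.96% of expressed genes with a median of −0.00012. The differentiated levels were part of the selection, so nothing is read from these counts.

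The members were also read in the somatic cells from which the iPSC lines were made. With 1 library per tissue there is no test. The members were chosen for high differentiated levels, and 15 passed the filter through differentiated libraries alone, so a tissue level below the differentiated one is in part built into the selection, and the shares of all expressed genes are given as background from which nothing is read. Both tissues were below the lowest differentiated library for 29 members, and for 28.7% of expressed genes. In liver cells 14 members were listed at 0 (29.2%, against 5.76% of expressed genes) and in stomach cells 9 (18.8%, against 3.39%). The 6 members at 0 in both were SSUH2, ZIC1, TAGLN3, NPTX2, POU3F2 and METTL24. Among members above 0, the median distance from the differentiated mean was −1.34 in liver (34 members) and −0.95 in stomach (39 members) on the log2 scale, against −0.30 and −0.27 for expressed genes above 0. SLC35F1, at 45.4 RPM or more in every differentiated library, was listed at 0 in liver and at 4.86 RPM in stomach cells.

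A few members were more abundant in the tissues. CXCL6 reached 2427 RPM in stomach cells and 2.93 RPM in liver cells, and IGFBP3 574 RPM and 15.8 RPM, where their highest differentiated libraries had 65.2 and 101 RPM. CCDC80 was at 119 RPM in liver and 47.7 RPM in stomach cells, CD47 at 44.6 and 188 RPM, and VASH2 at 0 and 59.3 RPM. Only SAMTOR was above its highest differentiated library in both tissues (19.96 and 26.6 RPM against 18.4 RPM), which held for 9.33% of expressed genes. Markers of fibroblasts and mesenchyme, 7 of 19 listed genes, summed to 8160 RPM in liver and 11083 RPM in stomach cells. Their sum was 19.1 to 298 RPM in differentiated, 43.05 to 296 RPM in naïve-like and 121 to 896 RPM in primed libraries.

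**Figure D5:**
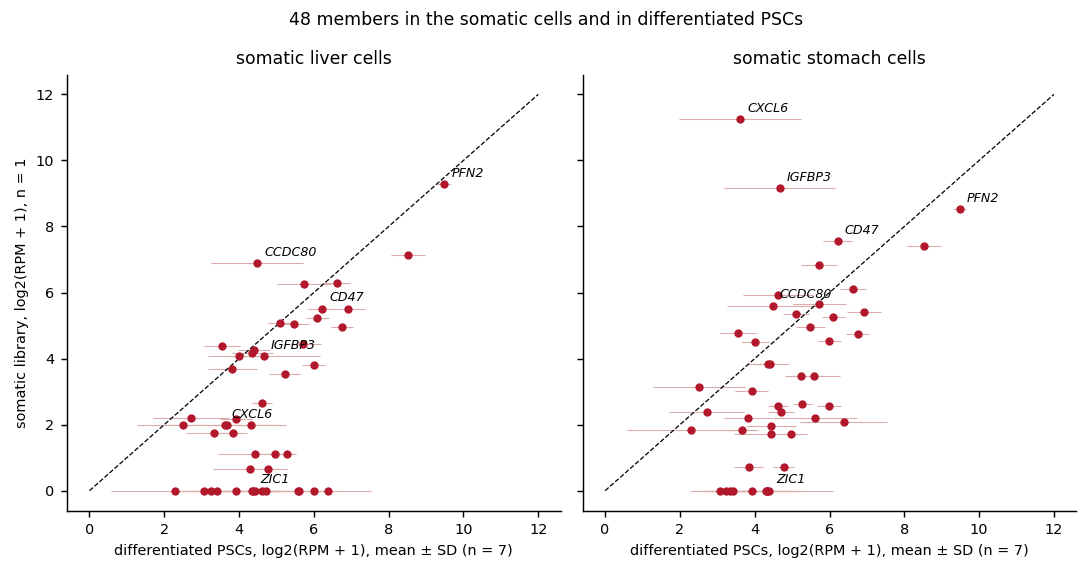
Level of each member in the somatic liver (left) and stomach (right) library against its mean level in differentiated PSCs, both in log2(RPM + 1), with bars for the SD over 7 lines. Most points lie below the dashed line of equality, 14 lie at 0 in liver and 9 at 0 in stomach, and CXCL6 at 2427 RPM in stomach cells lies farthest above it.

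The other genes of the members' pathways were read by the same limma test from lists of genes. The list counts come from the fit without the line as a block. Over all expressed genes it called fewer genes than the blocked fit. The list of neural progenitor and neuronal genes had 36 expressed genes and 4 members, ZIC1, POU3F2, EPHA7 and SYT11. Of the other 32, 9 were higher and 4 lower in differentiated than in naïve-like cells, and 2 were higher and 2 lower than in primed cells, with median differences of 0.61 and 0.15. None was higher in both. Among 6 other genes of a list of retinoic acid and HOX genes, 3 were higher than in naïve-like cells and 1 was higher than in primed cells. That gene was HOXA3, whose mean log2 level was 0.50 (primed), 1.59 (naïve-like) and 3.59 (differentiated), and which the limit on naïve-like against primed levels kept out. The cytoskeletal list held TAGLN3 alone, and of 20 others 2 were higher and 1 lower than in naïve-like and 2 higher and 3 lower than in primed cells. The list of solute carriers and lipid metabolism held SLC35F1. Among its other 25 genes, 2 were higher and 3 lower than in naïve-like and 3 higher and 2 lower than in primed cells.

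The remaining lists had no member. Among 13 expressed genes of TGF-beta, BMP and activin signalling, 2 were higher and 2 lower than in naïve-like cells and 1 higher and 6 lower than in primed cells. Among 13 of FGF, LIF and receptor tyrosine kinase signalling, 0 were higher and 4 lower, and 0 higher and 6 lower. Of 12 cAMP and CREB genes 2 were higher and 2 lower, and 0 higher and 1 lower. The list of extracellular matrix and adhesion had 28 genes, with 3 higher and 3 lower, and 0 higher and 7 lower. Of the 10 p53 targets and cell-cycle brakes 1 was lower than in primed cells and none passed otherwise, and 1 of 5 genes of antigen presentation and interferon was higher than in naïve-like cells. No histone gene was in the table.

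The cell-state markers were read beside these values, and their part in the members' levels was not tested. Of 9 expressed pluripotency markers, 5 were lower in differentiated cells than in both naïve-like and primed cells, namely POU5F1, HESX1, CRIPTO, DPPA4 and L1TD1. The others did not pass. Pluripotency markers, 10 of 18 listed, summed to 978 to 2612 RPM in primed libraries (median 1823) and 1948 to 2858 RPM in naïve-like libraries (median 2455). In differentiated libraries the sum was 1207 to 2294 RPM (median 1733), so it overlapped with both. Neuroectoderm markers, 5 of 12 listed and the member POU3F2 among them, summed to 652 to 988 RPM in primed, 257 to 851 RPM in naïve-like and 664 to 1169 RPM in differentiated libraries. Their list shares SOX2 with the list of pluripotency markers. Neural crest markers, 7 of 11 and ZIC1 among them, summed to 4.00 to 68.6, 12.8 to 75.1 and 37.2 to 79.2 RPM. Mesoderm markers (9 of 16) summed to 20.0 to 76.7 RPM in primed, 15.9 to 47.7 RPM in naïve-like and 5.31 to 21.9 RPM in differentiated libraries. Endoderm markers (4 of 15) summed to 27.5 to 58.0, 0.692 to 35.5 and 2.19 to 154 RPM, and trophoblast and amnion markers (5 of 15) to 21.5 to 98.3, 5.54 to 18.6 and 6.47 to 55.3 RPM. Endothelial markers (3 of 9) were at 4.70 to 48.1, 1.11 to 11.2 and 0 to 5.06 RPM, and epithelial markers (6 of 13) at 578 to 1699, 814 to 1514 and 634 to 1328 RPM.

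The genes whose levels ran most alike were sought for the first 5 members over the 21 PSC libraries. Since these libraries fall into the 3 conditions that the selection compared, the coefficients are descriptions. SSUH2 was close to PFN2 (Pearson's r = 0.893) and YBX1 (0.828), and ZIC1 to TAGLN3 (0.879), CD47 (0.849) and PFN2 (0.807). TAGLN3 was nearest to PFN2 (0.894), GLI3 (0.888) and ZIC1 (0.879), and S1PR1 to GPR161 (0.817), CD47 (0.814) and PFN2 (0.778). CHN2, the sparsest of these, was nearest to 3 genes outside the set, TXNDC5 (0.772), TSPYL4 (0.744) and SNAPIN (0.709).

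In the gene order of the RefSeq annotation, CD47 and IFT57 had 1 annotated gene between them, BOC and CCDC80 had 6, SLC35F1 and FAM184A had 7, and CCDC80 and TAGLN3 had 9. The 2 expressed genes between BOC and CCDC80 had median differences of 0.34 over naïve-like and 0.29 over primed cells, and the 4 between CCDC80 and TAGLN3 had −0.69 and 0.24. All other neighbouring members were at least 19 annotated genes apart. By chromosome, 15 members lay among 931 expressed genes of chromosome 1, 12 among 533 of chromosome 2, 9 among 524 of chromosome 3, 9 among 509 of chromosome 4 and 2 among 186 of chromosome 5.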

How the data were processed

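The deposited values are RPM, reads per gene scaled to the mapped reads of a library, which the authors made from 75 bp single reads of SC3-seq libraries prepared from 1 ng of total RNA. The submitters' processing notes name cutadapt 1.3, TopHat 1.4.1 and Cufflinks 2.2.0, the build in the file name is macFas5, and the counting was not stated to use strand, so overlapping antisense genes cannot be told apart. The table had 8416 rows, of which 1 was incomplete and was left out. No library was dropped or imputed. In each library the values above 0 fell on whole multiples of a smallest step, within 0.02 of a read, for 86.7% to 92.9% of genes, so depth could be read from the step but no count test was run.

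Values were used as log2(RPM + 1), which understates differences of low genes. The members follow the thresholds given above. Genes were tested over all 2776 expressed genes with limma 3.58.1 in R 4.3.3 (with a mean-variance trend and Benjamini-Hochberg adjustment at 0.05), 7 libraries per condition for the conditions and 3 ESC against 4 iPSC lines for the cell class. The authors' methods state no test for these data. All iPSC lines came from the same foetus. The tests of cell class count them as separate replicates and cannot tell class from animal. The same lines appear in each condition. Deviations from the condition means correlated at a median r of 0.26 in the 21 pairs of libraries of the same line (0.03 to 0.56) and −0.07 in 126 pairs of different lines, across genes, which are not independent replicates. Blocking on the line was therefore an alternative. The other alternatives were another pseudocount (0.1), other filters on low values, quantile normalisation, centring of libraries, no trend, other limits of the selection, and leaving out a line or a library. The tests were checked on simulated data of 2776 genes. Of 100 genes raised in differentiated cells of all lines, 100 were called against naïve-like and 100 against primed cells, and 0 in either comparison of ESC with iPSC lines. Of 100 genes raised in ESC lines alone, 100 were called in both of the latter, 31 against naïve-like and 39 against primed cells. Unchanged genes called numbered 3 to 10. The planted rises were larger than the members' median gains and than the differences in response given above for GLI3, SPSB4 and TMEM170B. Noise was drawn independently, with the same spread for every gene and no effect of the line. These counts therefore do not show how many smaller differences the tests would find.

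Members, gene lists and tests were chosen with earlier results of these data known. The 25 members with the largest smaller gain are given with values in 3 conditions and the others by name, as are members of the lists, the 3 genes on either side of each threshold, members with an unadjusted p under 0.05 between ESC and iPSC lines and the 5 members highest in the tissues relative to differentiated cells. A few genes that these rules would name, 1 member among them, are not reported here. Genes that are not members are named from the lists only where they were higher in both contrasts, apart from the pluripotency markers, which were named after their values were seen. Symbols of 10 members came from RefSeq (T2T-MFA8v1.1) by gene ID, and its gene order and chromosomes were used but not its coordinates. No promoter or protein sequence was read.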

Additional observations from a re-analysis of the deposited data

Results flagged for a closer look

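In 7 of the 144 sets of 7 libraries, 1 for each member and condition, the lowest library stood apart from the rest by more than Dixon's 95% limit for the gap over the range, where about 7.2 sets are flagged by chance. In primed TRSK these were IGFBP3 (gap over range 0.691, 3.23 RPM against 7.65 RPM in the next library), PLPPR5 (0.603, 2.06 against 8.77 RPM) and FAM184A (0.659, 3.23 against 11.5 RPM). In naïve-like CMK6 they were PFN2 (0.648, 218 against 343 RPM) and SYT11 (0.731, 4.15 against 16.02 RPM). In primed L6 PIK3R3 was listed at 0 (0.584, next library 1.76 RPM), and in naïve-like L6 SAMTOR stood at 1.11 RPM (0.571, next library 4.15 RPM). All 7 were low libraries of primed or naïve-like cells, and none of differentiated cells was flagged. A low primed or naïve-like library raises a gain and a low differentiated one lowers it. This pattern is therefore in part built into the selection, and nothing is read from it.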

How the results depend on the processing

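The number of members was 26 when genes had to be expressed in at least 7 libraries and 25 when all 7 lines had to be positive, and it ran from 43 to 53 with a line left out. Genes called between differentiated and naïve-like cells (392) were 220 to 346 with a line left out, lowest without CMK6, and 550 with the line as a block, where 44 members were higher. Genes called between differentiated and primed cells (372) were 243 with no filter on low values, 585 with the line as a block and 240 to 391 with a line left out, lowest without S6. Genes that differed in response between ESC and iPSC lines were 6 with no filter, none of them a member, and 0 under the block and each other alternative. The count that differed in level (17) was 4 to 114 with a line left out, namely 4 without L3, 4 without TRSK, 5 without L6, 7 without S6, 10 without CMK6 and 114 without S12, and 18 under the block, with NPTX2 called in each of these except without TRSK. NPTX2 could not be tested when expression in at least 7 libraries was required. The block changed no other call of a named member between ESC and iPSC lines. With a pseudocount of 0.1 the medians of the tissues' distance from differentiated cells, taken over all members, were −1.96 in liver and −1.84 in stomach, against −1.77 and −1.69. No named difference between ESC and iPSC lines changed sign. Apart from the fewer genes or lines that a stricter limit or a line left out leaves, the cause of these shifts was not tested. A search of the members' promoters for sequence motifs was not run. Members with few reads are limited by depth, since 3 reads were up to 3.49 RPM.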
